A study of Mus musculus with 2 samples.

Results

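The Ikaros family of zinc finger transcription factors was followed through 3 of its genes, Ikzf1 (Ikaros), Ikzf2 (Helios) and Ikzf3 (Aiolos), which are 3 of the 32285 genes counted in a single-cell experiment on mouse thymus. Invariant natural killer T (iNKT) cells were sorted from Ctrl mice and from T-KO mice, in which Kidins220, a scaffold protein of the T cell antigen receptor (TCR), is floxed and deleted by Cre recombinase under the proximal Lck promoter, a promoter active in thymocytes from an early stage. All mice were C57BL/6, 4 thymi were pooled per genotype, and the ages of the mice in each pool are not stated. For each genotype, stage 0 cells (TCRβ+ CD1d tetramer+ CD24+ NK1.1-) and stage 3 cells (TCRβ+ CD1d tetramer+ NK1.1+ CD24- CD44+) were sorted in 2 parallel sorts, and the 8 populations were marked with hashtag antibodies, mixed and sequenced as 1 droplet library. Whether both sorts of a genotype came from the same pool of thymi is not stated.

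The labels pair hashtags 1 to 8 with the populations. However, 99.9% of the hashtag counts lay on the rows numbered 11 to 18 of the deposited matrix. No label ties these numbers to a population. No row was therefore assigned to a stage or a genotype. Each row is given as 1 unassigned population with the counting error of its sum, no test between rows was possible, and odd and even are names of row numbers only. Of 16179 barcodes, 12147 had at least 1000 genes and at most 5% mitochondrial transcripts, and 10007 of these were assigned to 1 row because it held at least 80% of at least 10 hashtag counts. The odd rows 11, 13, 15 and 17 held 4249 cells and the even rows 12, 14, 16 and 18 held 5758.

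Ikaros factors bind DNA through a cluster of C2H2 zinc fingers near the start of the protein and pair with each other through fingers at its end, so that proteins of different members form mixed dimers. They recruit chromatin remodelling and deacetylase complexes, chiefly NuRD, and act as repressors or activators. In the thymus Ikaros guards the early T cell program and limits Notch targets, Helios marks thymocytes that receive strong TCR signals and regulatory T cells, and Aiolos is known from mature B cells and from effector and memory-like T cells.

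The 3 genes are paralogs, and their sequences are shown because counts of related transcripts can be told apart only where the letters differ. In the GENCODE M21 annotation of GRCm38 (mm10), Ikzf1 lies on the plus strand at chr11:11685003-11772926, Ikzf2 on the minus strand at chr1:69531214-69687245 and Ikzf3 on the minus strand at chr11:98464902-98546031. Their longest coding transcripts have 9, 8 and 8 exons and coding lengths of 1605, 1596 and 1521 bases. A search of the reading frame for the codons of a C2H2 finger with the classical spacing found 4 fingers in each gene. The second of them, within 1 exon in each gene, is part of the DNA-binding cluster. Its coding strand is printed from GRCm38 (Ikzf1 chr11:11754024-11754086, Ikzf2 chr1:69570581-69570643, Ikzf3 chr11:98488940-98489002), with capitals for the 45 of 63 bases that all 3 genes share:
Ikzf1: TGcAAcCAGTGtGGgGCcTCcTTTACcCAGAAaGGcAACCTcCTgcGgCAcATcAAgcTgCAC
Ikzf2: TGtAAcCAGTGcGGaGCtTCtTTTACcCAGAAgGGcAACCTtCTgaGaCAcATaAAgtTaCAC
Ikzf3: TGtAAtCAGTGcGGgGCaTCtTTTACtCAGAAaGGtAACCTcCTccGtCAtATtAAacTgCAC
The first finger differs most, with 36 of 63 bases shared by all 3 genes, 53 between Ikzf1 and Ikzf2 and 40 between either of them and Ikzf3. The longest run of identical letters between any transcripts of a pair was 26 bases for Ikzf1 and Ikzf3, 20 for Ikzf2 and Ikzf3 and 17 for Ikzf1 and Ikzf2.

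Transcript levels are counts of unique molecular identifiers (UMIs) summed over the cells of a population and given per 1000000 UMIs of that population (CPM), with an exact 95% Poisson interval where 2 numbers follow in parentheses. The rows differed in depth, with a median of 6500 to 8068 UMIs per cell in the odd rows and 3258 to 3804 in the even rows. The sorted stages could be set against markers only as far as the rows allow. Klrb1c, which encodes NK1.1, was at 328 to 444 CPM in the even rows and 4.78 to 6.57 CPM in the odd rows. Cd24a was at 313 to 365 CPM in the odd rows and 23.3 to 34.2 CPM in the even rows. The Trav11 segments, which form the invariant TCR α chain of iNKT cells, gave 27.6% to 31.9% of the TRAV counts in the even rows and 0.17% to 0.83% in the odd rows, so the defining iNKT chain was nearly absent from the odd rows. Kidins220, the deleted gene, was found in every row. It was at 19.7, 21, 14.5 and 13.9 CPM in rows 11, 13, 15 and 17. In rows 12, 14, 16 and 18 it was at 28.4, 35.2, 17.5 and 20.4 CPM. Reads were from the 5′ end of transcripts and the floxed part of the gene is not stated, so these counts assign no genotype. The authors reported the deletion by Western blot.

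Ikzf2 was the member that separated the odd from the even rows most. It was at 133, 247, 249 and 355 CPM in rows 11, 13, 15 and 17 and at 39.1, 38.9, 41.2 and 40.2 CPM in rows 12, 14, 16 and 18. Every odd row was above every even row, the median of the odd rows was 2.38 higher on the log2(CPM + 10) scale, and the odd rows spread widely while the even rows lay within counting error of each other. Of 10671 genes with at least 200 UMIs, 3899 (36.5%) were higher in every odd than in every even row, and 888 (8.32%) were so with medians at least 2-fold apart, Ikzf2 among them.

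Ikzf1 went the other way relative to all transcripts. It was at 139, 165, 163 and 199 CPM in the odd rows 11, 13, 15 and 17 and at 229, 239, 248 and 250 CPM in the even rows 12, 14, 16 and 18. The groups of rows did not overlap, with a difference of -0.54 between the medians on the log2 scale. Ikzf3 was at 92.0, 124, 116 and 140 CPM in the odd rows and at 226, 224, 169 and 179 CPM in the even rows, again without overlap and with a difference of -0.70. Higher values in every even row were found for 2551 of the 10671 genes (23.9%), so for these 2 members a direction alone is a frequent pattern.

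These directions are relative to the RNA of the cells. Counted per cell, Ikzf1 was higher in the odd rows, with 1.15 to 1.84 UMIs against 0.79 to 0.98 in the even rows. Ikzf3 gave 0.76 to 1.29 UMIs per cell in the odd rows and 0.67 to 0.78 in the even rows, and row 11 lay within the range of the even rows. The difference of Ikzf3 shrank to -0.32 in cells with at most 4000 genes and to -0.18 when the CPM of single cells was averaged, and in both cases the rows overlapped. The rows of Ikzf1 also overlapped when the CPM of single cells was averaged, and its difference shrank to -0.17, with overlapping rows, when the B cell-like and myeloid cells described below were left out of the odd rows, which gave 2.99 for Ikzf2.

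**Figure D1:**
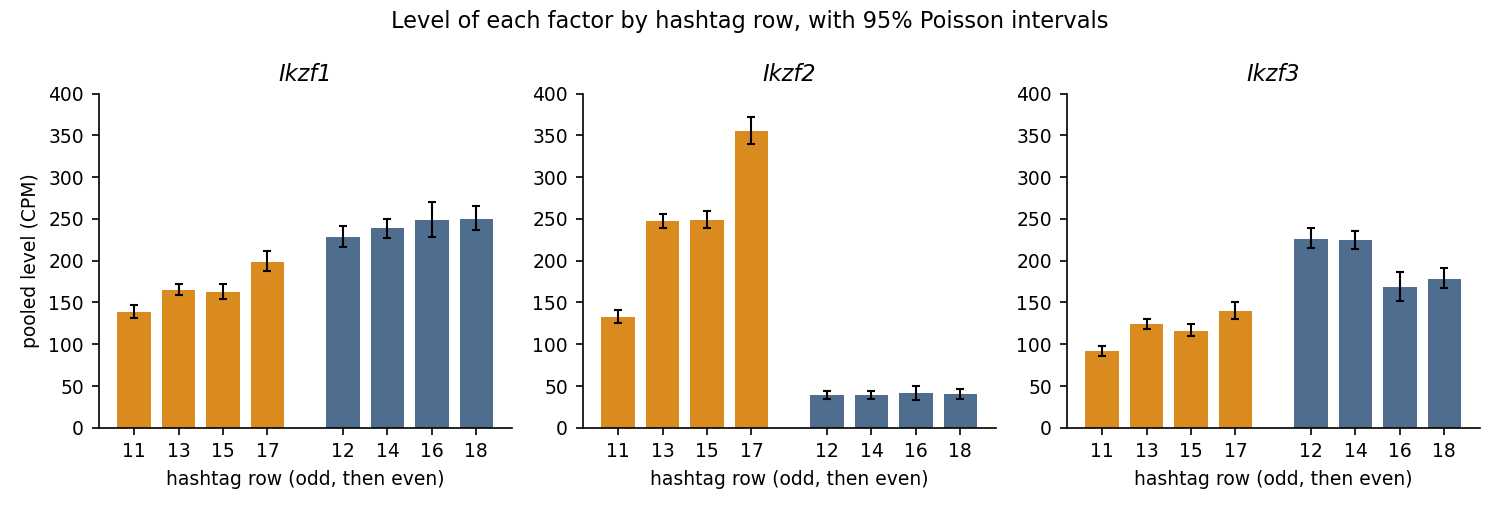
Levels of Ikzf1, Ikzf2 and Ikzf3 in the 8 hashtag rows, as pooled CPM (vertical axis, from 0), with odd rows in orange and even rows in blue; the black bars are 95% Poisson intervals of the counts. Ikzf2 lies between 133 and 355 CPM in the odd rows and near 40.2 CPM in every even row, while Ikzf1 and Ikzf3 are higher in the even rows, where Ikzf3 runs from 169 to 226 CPM and Ikzf1 from 229 to 250 CPM.

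The odd rows were mixtures, and each cell was placed in the first of 5 gates that it met: at least 2 UMIs of Cd79a (a B cell receptor subunit), at least 5 of Cst3 (cystatin C, high in myeloid cells), at least 1 of Rag1 (the recombinase of immature thymocytes), at least 1 of Pdcd1 (PD-1, a receptor induced by TCR signals), and the rest. The gates held 810, 972, 418, 929 and 1120 cells in this order. All 6 B cell markers reached 20 CPM in the Cd79a gate, all 7 myeloid markers in the Cst3 gate and 6 of 7 markers of CD4+CD8+ double-positive (DP) thymocytes in the Rag1 gate. In the Pdcd1 gate 5 of 7 markers of agonist-selected or stage 0 cells reached this level, which is no comparison between gates. Of these 7, Cd24a was at 279 to 356 CPM in the Pdcd1 gate and 333 to 402 CPM in the rest gate. Zbtb16 was at 13.9 to 22.0 CPM and 3.89 to 5.45 CPM in the same gates. The Trav11 share of the Pdcd1 gate was 0.22%, so its cells are called by their gate.

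Helios transcripts marked the Pdcd1 gate. Ikzf2 was at 752, 830, 930 and 766 CPM in the Pdcd1 gate of rows 11, 13, 15 and 17, and at 195, 175, 199 and 345 CPM in the rest gate of the same rows. The gates did not overlap, and within a row the ratio was between 2.22 in row 17 and 4.74 in row 13, with all 4 counting intervals above 1. In the Rag1 gate Ikzf2 was lower again, at 70.7, 88.9, 80.1 and 106 CPM, so that its level ran in the same order of Rag1, rest and Pdcd1 gates in each of the 4 rows. A gene was higher in the Pdcd1 than in the rest gate in all 4 odd rows for 1734 of 10671 genes (16.2%) and at least 2-fold higher in all 4 for 45 genes (0.422%), and Ikzf2 was 1 of these 45.

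Aiolos transcripts were high in the Pdcd1 gate and in the B cell-like Cd79a gate. Ikzf3 was at 202, 241, 281 and 224 CPM in the Pdcd1 gate of rows 11, 13, 15 and 17 and at 216, 214, 241 and 273 CPM in the Cd79a gate. These 2 gates overlapped, and the interval of their ratio excluded 1 in row 13 only. In the rest gate Ikzf3 was at 77.9, 71.8, 83.3 and 119 CPM, below the Pdcd1 gate in all 4 rows by a ratio of 1.89 to 3.38. The ratio was under 2 in row 17, so Ikzf3 was not among the 45 genes. The Rag1 gate, with 61.3 to 80.6 CPM, was close below the rest gate, and the interval of their ratio excluded 1 in 1 row of 4. The Cst3 gate was lowest, at 13.6 to 47.8 CPM, so Ikzf3 was 5.72 to 15.9 times higher in the B cell-like than in the myeloid cells.

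Ikaros transcripts varied least. Ikzf1 was at 232, 256, 235 and 243 CPM in the Pdcd1 gate of rows 11, 13, 15 and 17 and at 236, 195, 203 and 255 CPM in the rest gate. The Pdcd1 gate was higher in rows 13 and 15 and not in rows 11 and 17, the median log2 difference was 0.09, and it turned to -0.02 without row 13 or without row 15, so no direction was given by these gates. The Rag1 gate was lower than both in every row, at 150 to 185 CPM, although the same cells gave 1.44 to 2.60 Ikzf1 UMIs each against 1.29 to 1.88 in the rest gate. Per transcript Ikzf1 was therefore lower in the Rag1 gate, and per cell it was higher in all 4 rows. The median depth over the odd rows was 13561.5 UMIs in the Rag1 gate and 4273 in the rest gate. Row 11 differed, with 3684.5 against 2936.5 UMIs, where the Rag1 gate of rows 13, 15 and 17 had 14409 to 15274. The Cst3 gate was at 105 to 123 CPM and the Cd79a gate at 77.2, 82.4, 86.1 and 147 CPM.

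Among the counts of the 3 members together, the balance of Ikzf2 to Ikzf3 changed from population to population, which compares populations and not the levels of the 2 genes. There were 3.30 to 3.72 Ikzf2 UMIs per Ikzf3 UMI in the Pdcd1 gate, 2.39 to 2.90 in the rest gate, 1.08 to 1.45 in the Rag1 gate, 0.04 to 0.39 in the Cd79a gate and 0.17 to 0.24 in the even rows. Cells with Pdcd1 UMIs were also present in the even rows, 28 to 97 per row. Their Ikzf2 level was 51.9, 65.5, 69.9 and 68.5 CPM in rows 12, 14, 16 and 18, against 752 to 930 CPM in the Pdcd1 gate of the odd rows. The lower ends of their intervals were 29.1, 41.5, 30.2 and 43.9 CPM, and the whole even rows were at 38.9 to 41.2 CPM.

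**Figure D2:**
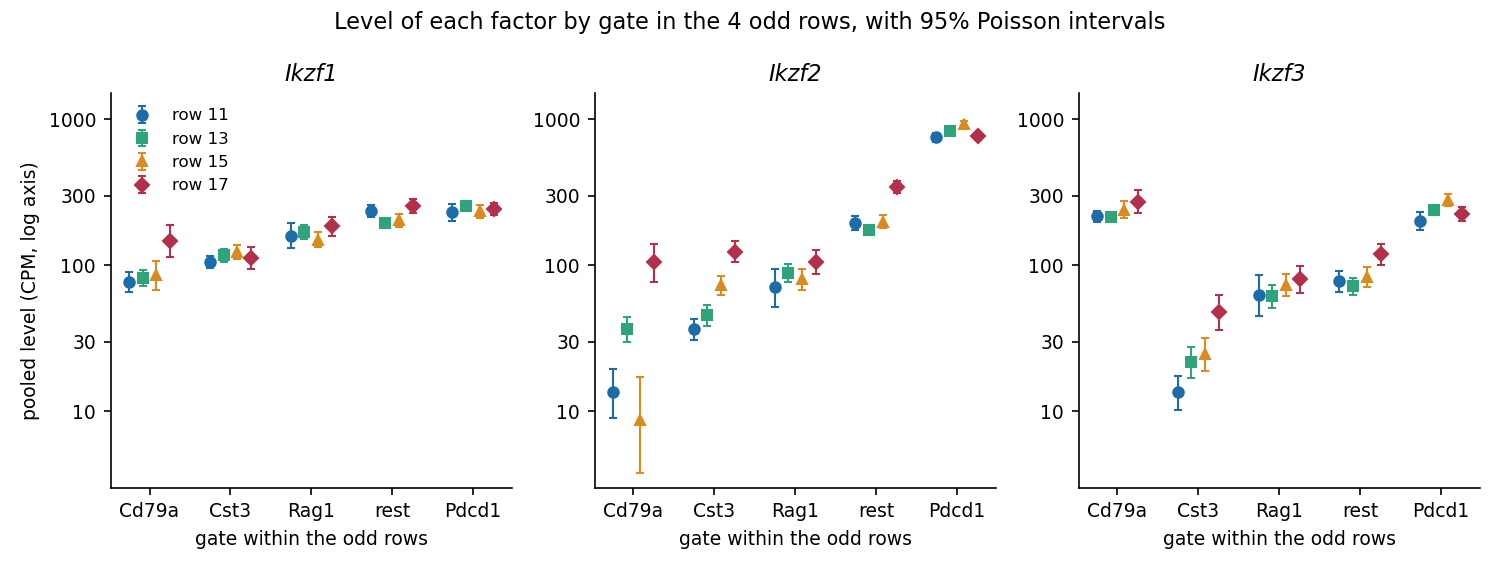
Levels of the 3 genes in the 5 gates of the odd rows, as pooled CPM on a log axis, with 1 symbol per row and 95% Poisson intervals. Ikzf2 climbs from the Rag1 gate (70.7 to 106 CPM) through the rest gate to the Pdcd1 gate (752 to 930 CPM), Ikzf3 is high in the Cd79a and Pdcd1 gates, and row 17 lies above the other rows in the Cd79a, Cst3 and rest gates for Ikzf2.

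Row 17 stood apart in several gates. Its Ikzf2 level was 106 CPM in the Cd79a gate and 124 CPM in the Cst3 gate, where the other odd rows had 8.71 to 36.7 and 36.5 to 72.8 CPM. T cell transcripts moved with these values. The summed level of Cd3e, Cd3d, Cd3g, Lck and Trac, which belong to the TCR complex and its signaling, was 597 CPM in the Cd79a gate of row 17 and 195 to 273 CPM in that of the other rows, and all 5 genes reached 20 CPM in row 17 against 4 of 5 elsewhere. In the Cst3 gate the sum was 1045 CPM in row 17 and 323 to 588 CPM in the other rows. A single cell of the Cd79a gate of row 17 held 26 of its 46 Ikzf2 UMIs. The part of T cell transcripts in the Ikzf2 counts of these gates was not tested. For the comparison of the Pdcd1 with the rest gate, the median log2 difference was 2.03 for Ikzf2 and 1.44 for Ikzf3 with row 17, and leaving out any 1 odd row gave 1.89 to 2.17 and 1.27 to 1.62.

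Because detection depends on depth, each cell was also thinned to 2000 UMIs, which left out 216 of the 4249 cells of the odd rows and 552 of the 5758 cells of the even rows. A UMI of Ikzf2 was then found in 67.2% to 75.3% of the cells of the Pdcd1 gate, 25.6% to 37.9% of the rest gate and 13.7% to 17.9% of the Rag1 gate. In the even rows it was found in 6.33% to 7.14% of cells, and in the B cell-like Cd79a gate in 3.23% to 5.45%. The share in the even rows was above that of the B cell-like cells, at 6.76% (6.09% to 7.48%) of all cells of the even rows against 3.53% (2.36% to 5.06%) of all cells of the Cd79a gate, and overlapped the 6.08% (4.66% to 7.78%) of the Cst3 gate. Cd79a itself was found in 3.66% to 4.13% of the cells of the even rows, of which 2 to 5 per row met the limit of the Cd79a gate. The part of free RNA in the droplets in these shares was not tested. Before thinning the shares of Ikzf2 were 82.1% to 93.0% in the Pdcd1 gate and 11.5% to 13% in the even rows. Cells with several transcripts differed as well, since at least 3 Ikzf2 UMIs were left in 30.4% to 43.3% of the cells of the Pdcd1 gate and in 0% to 0.20% of those of the even rows, where 0 of 1625 cells in row 12 and 0 of 1967 in row 14 allow shares of up to 0.185% and 0.153%.

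Ikzf3 was found in 32.8% to 49.0% of thinned cells of the Pdcd1 gate, 39.0% to 45.5% of the Cd79a gate, 15.5% to 29.7% of the rest gate and 1.80% to 6.32% of the Cst3 gate. Among the even rows it was found in 35.3%, 35.4%, 24.6% and 28.8% of the cells of rows 12, 14, 16 and 18. Ikzf1 was found in 35.5% to 38.1% of the cells of the even rows and 35.6% to 40.8% of the Pdcd1 gate, so at equal depth these populations overlapped. Its share was lowest in the Cst3 gate, at 16.6% to 18.5%. For comparison, Klrb1c, which marks the cells of the even rows, was found in 1.20% to 1.97% of the cells of the odd rows.

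**Figure D3:**
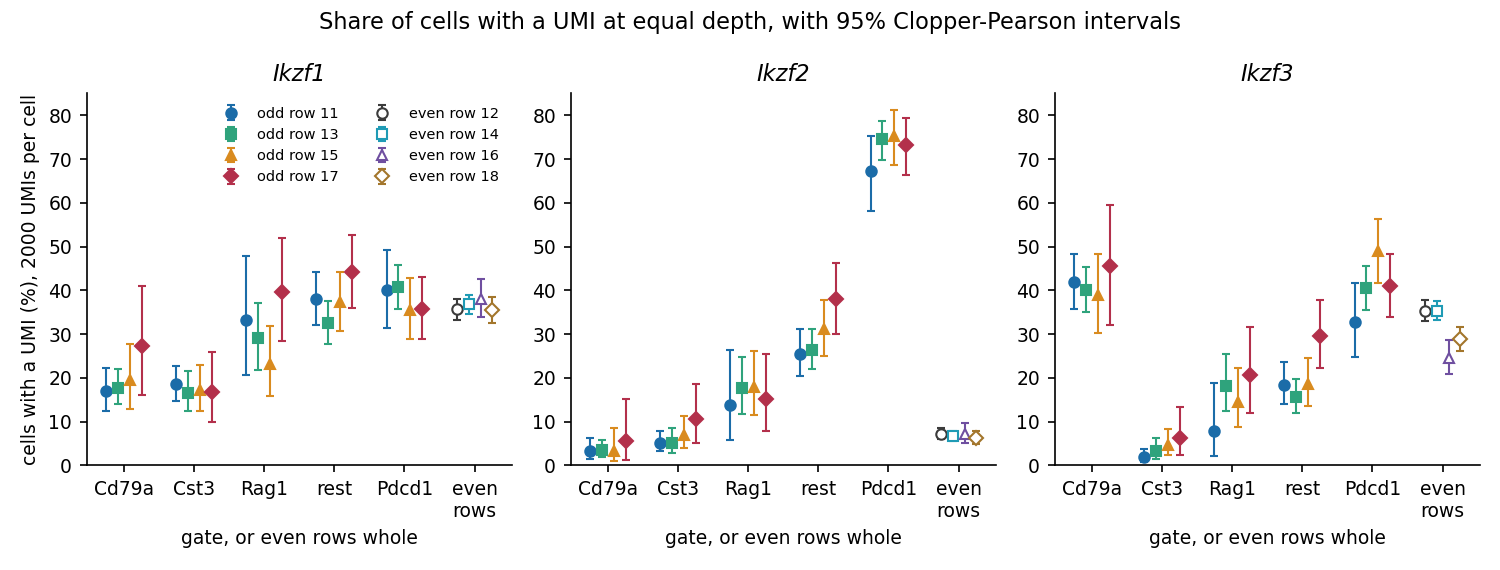
Share of cells with at least 1 UMI of each gene after thinning to 2000 UMIs per cell (vertical axis, percent), by gate in the odd rows (filled) and in the whole even rows (open), with 95% Clopper-Pearson intervals. Ikzf2 reaches 67.2% to 75.3% in the Pdcd1 gate and stays at 6.33% to 7.14% in the even rows, while the shares of Ikzf1 in the Pdcd1 gate and the even rows overlap.

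In the Pdcd1 and rest gates of the odd rows, Aiolos transcripts were found more often in cells that also had Helios transcripts. In the Pdcd1 gate, Ikzf3 was found in 47.1% of the 656 thinned cells with an Ikzf2 UMI and in 25.6% of the 238 without. In the rest gate it was found in 35.8% of 285 cells with Ikzf2 and in 12.3% of 702 without. The direction was not particular to these 2 gates. In the Rag1 gate Ikzf3 was found in 27.7% of 65 cells with Ikzf2 and 13.9% of 324 without. In the myeloid Cst3 gate it was found in 20.3% of 59 and 2.20% of 911. The Cd79a gate went the other way, with 28.6% of 28 cells with Ikzf2 and 41.3% of 765 without. In the even rows Ikzf3 was found in 29.3% of 352 cells with Ikzf2 and 33.2% of 4854 without. Row by row, the share was higher in cells with Ikzf2 in all 4 odd rows for the rest gate, and in the Pdcd1 gate in rows 13, 15 and 17, while row 11 had 33.3% and 31.7%.

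The same cells were divided by their Ikzf2 UMIs of 2000. Over the Pdcd1 and rest gates of the odd rows, the Ikzf3 level at equal depth was 93.6 CPM (80.3 to 109) in 940 cells with 0 Ikzf2 UMIs, 270 CPM (239 to 304) in 520 cells with 1 to 2 and 439 CPM (396 to 487) in 421 cells with 3 or more. The order held in each row, from 89.96, 73.4, 93.8 and 152 CPM at 0 to 382, 425, 476 and 461 CPM at 3 or more in rows 11, 13, 15 and 17. Ikzf1 was at 234, 279 and 290 CPM over the same steps, and in rows 11 and 17 it did not follow that order. The share of cells from the Pdcd1 gate moved with the steps, at 25.3%, 62.3% and 78.9%, and its part in these values was not tested beyond the shares within each gate given above. The Pdcd1 gate itself also held cells with Top2a UMIs, which had less Ikzf2 and Ikzf3 per transcript, as given below. The part of these cells in the shares and steps was not tested. This is a description over cells of 4 rows, which share 1 library.

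**Figure D4:**
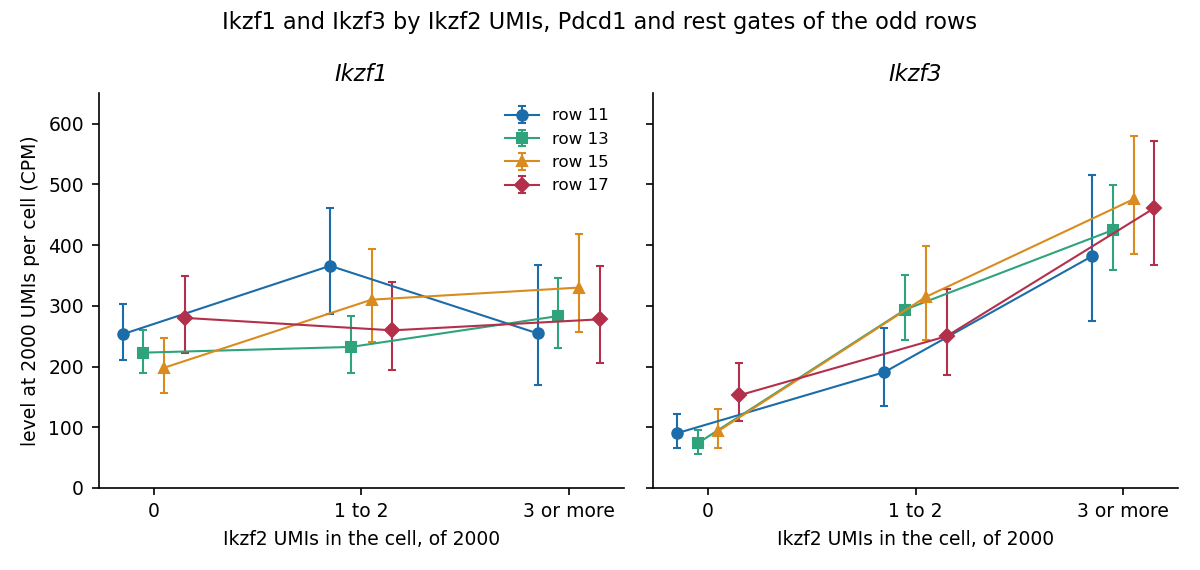
Levels of Ikzf1 (left) and Ikzf3 (right) at 2000 UMIs per cell, in CPM, in cells with 0, 1 to 2, and 3 or more Ikzf2 UMIs, for the Pdcd1 and rest gates of each odd row, with 95% Poisson intervals. Ikzf3 climbs in all 4 rows, to 382 to 476 CPM, and Ikzf1 stays between 198 and 366 CPM with no common order.

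The comparison of the Pdcd1 with the rest gate was then cut finer by Pdcd1 UMIs, the counts that define these gates. Cells with 0 Pdcd1 UMIs are the rest gate and the other steps divide the Pdcd1 gate. The steps are therefore no separate support for the difference between the gates. Over the odd rows, in cells outside the first 3 gates with 0, 1, 2, and 3 or more Pdcd1 UMIs, Ikzf2 was at 209, 496, 755 and 1044 CPM. It was higher at each step in every row. Ikzf3 was at 82.6, 164, 224 and 291 CPM, with exceptions in row 11, where 2 Pdcd1 UMIs gave 111 CPM and 1 gave 164 CPM, and in row 15, where they gave 226 and 239 CPM. Ikzf1 was at 214, 228, 265 and 250 CPM. Cells with 3 or more Pdcd1 UMIs were deeper than those with 0, with a median of 6626 against 4273 UMIs over the odd rows. The steps between did not climb in depth in every row. In row 13 the medians at 0, 1 and 2 were 6455.5, 4960.5 and 4354.5 UMIs, and in row 15 they were 5447, 4565 and 4786.

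Cells of the Pdcd1 gate were also divided by marker genes, into groups that differ in depth. Those with a UMI of Top2a, a topoisomerase made in proliferating cells, numbered 410 of 929. Their Ikzf2 level was 461, 551, 591 and 544 CPM in rows 11, 13, 15 and 17, and the cells with no Top2a, fewer than 2 Tnfrsf9 and fewer than 2 Cd7 UMIs had 1182, 1468, 1668 and 1317 CPM. Ikzf3 was likewise at 154 to 214 CPM against 266 to 368 CPM, without overlap, whereas Ikzf1 was at 228 to 261 CPM against 230 to 275 CPM. The Top2a cells had more RNA, with a median of 10321 UMIs against 3816. Counted per cell, Ikzf2 overlapped between both, with 5.35 to 6.57 UMIs against 4.23 to 7.55. Ikzf1 was at 2.65 to 2.99 against 0.98 to 1.15 UMIs. The order of Ikzf3 turned round per cell, with 1.78 to 2.38 UMIs in the Top2a cells against 0.95 to 1.67. The share of all genes without overlap is not given for this split. Cells with at least 2 UMIs of Tnfrsf9 (4-1BB, a costimulatory receptor induced by TCR signals) and no Top2a, of which 3 rows held at least 20, had 1112 to 1309 CPM of Ikzf2 and 356 to 396 CPM of Ikzf3.

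Among the even rows Ikzf3 was the member with the largest ratio of the highest to the lowest row. Row 12 had 226 CPM (215 to 239), row 14 had 224 CPM (214 to 236), row 16 had 169 CPM (152 to 186) and row 18 had 179 CPM (167 to 191). The ratio of row 12 to row 16 was 1.34 (1.20 to 1.51) and that to row 18 was 1.27 (1.16 to 1.38), those of row 14 were 1.33 (1.19 to 1.49) and 1.26 (1.16 to 1.37), and rows 12 and 14 had 1.01 (0.94 to 1.08) and rows 16 and 18 0.94 (0.84 to 1.07). The intervals cover counting error only, and no label says which of these rows are replicates. Of 8173 genes with at least 200 UMIs in the even rows, 24.4% had a highest-to-lowest ratio at least as large as that of Ikzf3. Many of these genes have fewer counts than Ikzf3, and counting error alone widens their ratios. The share therefore does not show how frequent such a spread is among genes with as many counts. Kidins220 moved over these rows as well, at 28.4, 35.2, 17.5 and 20.4 CPM, and a relation over 4 rows was not tested.

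Ikzf1 and Ikzf2 varied little over the even rows. The ratio of the highest to the lowest row was reached or passed by 87.2% of genes for Ikzf1 and by 95.9% for Ikzf2, and these genes include many with fewer counts and so wider counting error. Of their 12 ratios between even rows, only that of Ikzf1 in row 12 to row 18, at 0.91 (0.84 to 0.99), had an interval that excluded 1.

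Cells of the even rows were divided by marker genes: Mcm3, a replication helicase subunit, Ifit3, an interferon-induced gene, Izumo1r, the folate receptor 4, in cells without Ccl5, and Ccl5, an effector chemokine. In cells with Izumo1r and no Ccl5, Ikzf3 was at 221, 215, 148 and 154 CPM in rows 12, 14, 16 and 18. In the undivided remainder it was at 236, 230, 174 and 192 CPM, and in cells with at least 5 Ccl5 UMIs at 220, 227, 183 and 167 CPM. Rows 16 and 18 were below rows 12 and 14 in each of these 3 groups, with intervals that overlapped in the Ccl5 cells only. With at least 2 Mcm3 UMIs the 4 rows lay at 180, 199, 179 and 172 CPM. Their intervals overlapped throughout, with 33 to 68 cells per row. With at least 2 Ifit3 UMIs, rows 12, 14 and 18 lay at 218, 175 and 223 CPM. Row 18 was thus not below rows 12 and 14 there, with overlapping intervals and 27 to 48 cells per row.

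Within a row, Ikzf1 was higher in the Izumo1r cells without Ccl5 than in the Ccl5 cells in all 4 even rows. It was at 257 to 274 CPM against 163 to 216 CPM. The intervals of these groups overlapped in rows 12, 16 and 18. They were apart in row 14 only, at 234 to 288 against 179 to 230 CPM. The share of all genes with such an order is not given. Ikzf2 was at 34.0 to 53.0 CPM and 29.2 to 46.7 CPM in the same groups, with overlap, and at 47.2 to 87.7 CPM in the Ifit3 cells of the 3 rows that held at least 20 of them. The share of Izumo1r cells without Ccl5 was 15.6%, 18.7%, 21.3% and 26.7% in rows 12, 14, 16 and 18, and that of Ccl5 cells 17.6%, 16%, 12.8% and 9.87%.

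**Figure D5:**
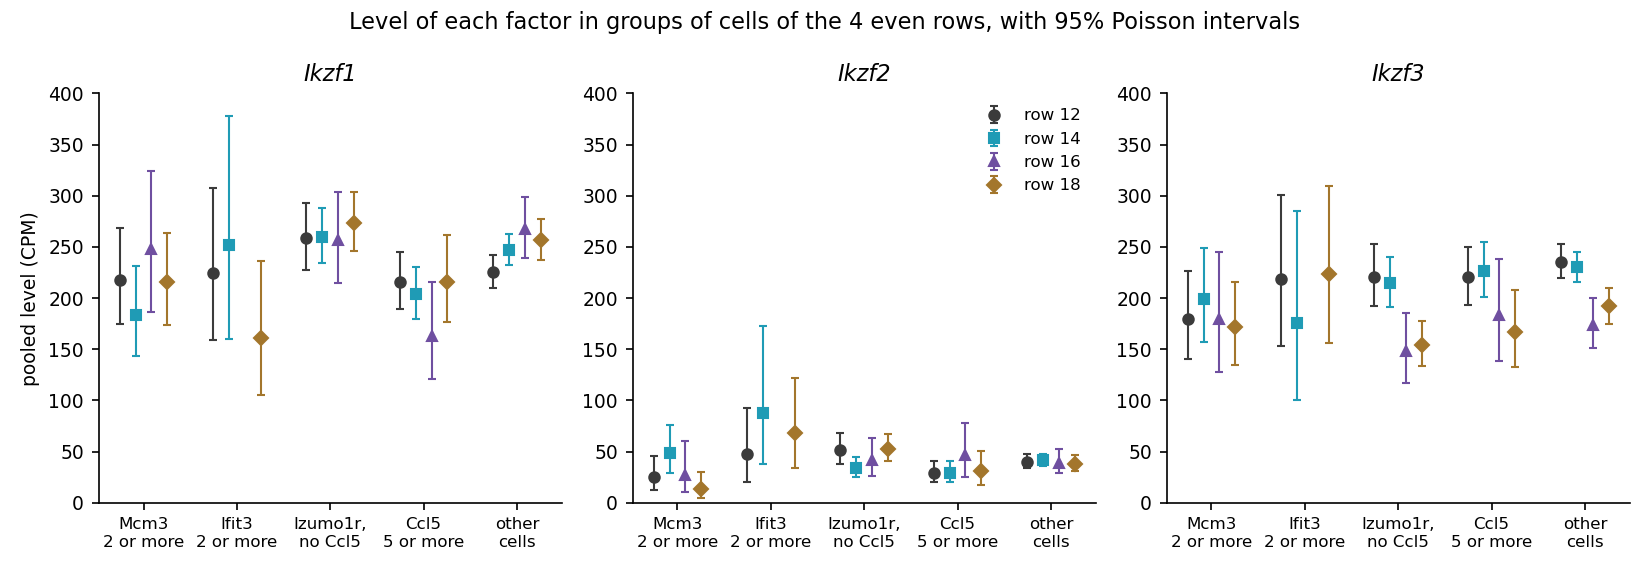
Levels of the 3 genes in groups of cells of the even rows, as pooled CPM from 0, with 1 symbol and colour per row and 95% Poisson intervals; groups under 20 cells are left out. Ikzf3 in rows 16 and 18 lies below rows 12 and 14 in the Izumo1r cells (148 and 154 against 221 and 215 CPM). It also lies below them in the Ccl5 cells and the other cells. In the Ifit3 cells Ikzf3 is at 223 CPM in row 18, above rows 12 and 14 (218 and 175 CPM). Ikzf2 stays below 100 CPM in every group.

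The other genes of the family were at low counts. Ikzf5 (Pegasus) was at 16.2 to 22.2 CPM in the odd rows and 16.7 to 18.4 CPM in the even rows, with overlap. Ikzf4 (Eos) had 125 UMIs in all, too few for the comparisons, with 5.75 to 8.95 CPM in the Pdcd1 gate and 0.68 to 1.75 CPM in the even rows.

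Partners and reported targets were taken as lists, and their counts are read against all genes. Of 13 genes of the NuRD complex, 8 were higher in every odd row, where all genes gave 36.5%, and 3 in every even row, where all genes gave 23.9%, with a median log2 difference of 0.36 against 0.10 over all 10671 genes. The 3 were Chd3, the remodelling ATPase, at 153 to 172 CPM in the even against 76.5 to 108 CPM in the odd rows, Mbd2, a methyl-DNA binding subunit, at 202 to 207 against 118 to 127 CPM, and Gatad2a, at 93.0 to 102 against 76.4 to 88.9 CPM. Chd4, the other ATPase, was at 184 to 218 CPM in the odd and 153 to 178 CPM in the even rows. In the Pdcd1 against the rest gate 1 NuRD gene was higher in all 4 rows (16.2% of all genes), the deacetylase Hdac1 at 268 to 312 against 169 to 227 CPM, and 2 were lower, Mta1 and Mta3, the latter at 92.4 to 128 against 171 to 243 CPM. Lower values in the Pdcd1 gate in all 4 rows were found for 1885 of 10671 genes (17.7%). Of 4 co-repressor genes, Ctbp2 was higher in every odd row, and Sin3a, Sin3b and Ctbp2 were lower in the Pdcd1 gate, with a list median of -0.11. Ctbp2 had 287 UMIs in all, at 0 to 3.15 CPM in the Pdcd1 and 0.85 to 4.45 CPM in the rest gate, so its order there rests on few counts.

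Of 20 reported target genes 17 had enough counts. Lower values in the Pdcd1 than in the rest gate were found in all 4 rows for 13 of them (17.7% of all genes), with a list median of -0.81 against -0.01 over all genes. They included Notch1, at 39.0 to 51.2 against 91.7 to 138 CPM, Hes1, a Notch target, at 1.92 to 4.20 against 9.33 to 27.3 CPM, Dntt, the terminal transferase of immature lymphocytes, at 162 to 263 against 539 to 737 CPM, and Il2ra, the interleukin-2 receptor α chain, at 13.9 to 39.0 against 84.9 to 229 CPM. Cd8a, Cd8b1, Ptcra and Rag2, genes of DP or earlier thymocytes, were lower too, and the summed level of the 7 DP markers was 325 to 474 CPM in the Pdcd1 gate and 1083 to 1245 CPM in the rest gate, 4 of which (Rag2, Dntt, Cd8a and Cd8b1) are also in the target list, and the part of these markers was not tested. Ccnd2, a cyclin, was the target gene that was higher, at 132 to 211 against 89.7 to 100 CPM.

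Between the rows, 9 of the 17 target genes were higher in every odd row (36.5% of all genes) and 6 in every even row (23.9% of all genes). The 6 were Dtx1, a Notch regulator, at 59.1 to 90.02 CPM in the even against 5.00 to 7.63 CPM in the odd rows, the interleukin-7 receptor Il7r at 821 to 859 against 40.6 to 53.9 CPM, the effector genes Ifng and Tbx21, which are also among the markers of stage 3 cells, Ccnd2, and the survival gene Bcl2 at 149 to 168 against 55.5 to 75.6 CPM. Ikzf1 and Ikzf3 shared this direction and Ikzf2 did not.

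The patterns most like those of the members were sought over 16 populations, the Rag1, Pdcd1 and rest gates of each odd row and the 4 whole even rows, by Pearson's r of log2(CPM + 10) over 5049 genes. The populations come from 1 library, and r is a description. Ikzf2 was followed most closely by Basp1 (r = 0.984), Twsg1 (0.981), Il6st (0.975), Acads (0.967) and Tsc22d1 (0.966). Basp1 was at 147 to 198 CPM in the Pdcd1 gate, 40.6 to 79.5 CPM in the rest gate and 7.39 to 12.8 CPM in the even rows, and Il6st, the shared receptor subunit gp130, at 106 to 128, 36.4 to 55.2 and 8.35 to 11.4 CPM. Rps19 (-0.955) and Gbp8 (-0.937) were most opposite to Ikzf2.

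Ikzf3 was most like Mapre2 (0.958), Pfkp (0.954), Tagap (0.949), Adora2a (0.947) and Tnfrsf1b (0.945). Tnfrsf1b, a tumor necrosis factor receptor, was at 47.2 to 67.2 CPM in the Pdcd1 gate, 15.4 to 36.5 CPM in the rest gate, 6.65 to 15.4 CPM in the Rag1 gate and 53.5 to 63.9 CPM in the even rows. The gene most opposite to Ikzf3 was Notch1 (-0.980), at 143 to 161 CPM in the Rag1 gate and 46.2 to 60.4 CPM in the even rows, followed by Ralgps2 (-0.937). Ikzf1 was most like Foxn3 (0.945), Ccm2 (0.940), Dap (0.938), Cytip (0.938) and Ftl1 (0.936), and most opposite to Bysl (-0.943) and Rps27a (-0.927). Among the members themselves r was 0.768 for Ikzf1 with Ikzf3, and 0.318 for Ikzf2 with either of them.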

How the data were processed

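The authors aligned and counted reads from the 5′ end of transcripts with Cell Ranger 6.0.0 and 10x Genomics' ready-made mm10 reference (release not stated), and deposited counts of UMIs per gene or hashtag and barcode, without normalization, for barcodes called cells. Other columns of per-sample values were not present (0). From these counts, cells were filtered and assigned to hashtag rows, and UMIs were summed per population with Python 3.11.15, numpy 2.4.6, scipy 1.17.1 and pandas 2.3.3. The labels could not be tied to the rows in use, so all cells counted as 1 sample and nothing was tested. For log2 ratios 10 CPM were added to each level. Intervals are exact Poisson (sums and, conditionally, ratios) and Clopper-Pearson (shares) at 95% and cover counting error only. A share of 0 is bounded by 3 counts of the total. Populations under 20 cells were not used.

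Cells were thinned without replacement with a fixed seed. No doublet caller was run. Doublets between hashtags were removed by the 80% rule, with 2140 cells assigned to no row, and doublets within a row were kept, as was free RNA in droplets. All barcodes come from 1 droplet library, so none is shared between libraries. The median depth was 3828 UMIs and 1748 genes per assigned cell. The code that counts genes separating the rows was checked on simulated counts with known changes.

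The members, gates, splits and lists were chosen with earlier results of these data known, and the T cell list of 5 genes and the values per cell after the levels by gate had been seen. Named genes are the members, the rest of the family, the lists, the fixed markers, the genes that define a split, and for each member the 5 most like and 2 most opposite genes among those with at least 50 CPM in 1 of the 16 populations, gate genes left out. Gene positions and finger sequences come from GENCODE M21 on GRCm38, and the fingers were found by pattern in the longest coding transcript. The sequence of the last finger is not reported here. Cell Ranger's own gene models were not used here. Alternatives were other cell filters, hashtag limits, CPM totals, pseudocounts, gate limits, gene minimums and thinning depths, and leaving out each row.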

Additional observations from a re-analysis of the deposited data

Results flagged for a closer look

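Over the 21 groups of 4 rows examined (each member in the odd rows, the even rows and the 5 gates), 2 had a row far from the others, where chance gives about 1 in 20. Ikzf1 in the Cd79a gate was at 147 CPM in row 17 and 77.2 to 86.1 CPM in rows 11, 13 and 15, a gap of 0.874 of the whole range. Ikzf2 in the rest gate was at 345 CPM in row 17 and 175 to 199 CPM in the other odd rows, a gap of 0.858 of the range. The rows are unassigned populations, and the summed T cell markers of row 17 were also the highest of the odd rows in both gates, at 597 CPM and 2890 CPM, the latter against 2308 to 2580 CPM. Their part in these values was not tested.

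The 2140 cells that passed the filters and were assigned to no row took part in no comparison. They had a median of 7131.5 UMIs and held 196 CPM of Ikzf1, 182 CPM of Ikzf2 and 161 CPM of Ikzf3, above the 0.148 CPM that a count of 3 gives.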

How the results depend on the processing

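Of 220 values recomputed for 16 results under 20 alternatives, 207 moved by less than the spread over rows, their counting interval or, for counts of genes, 1.5 times. With at most 4000 genes per cell, the log2 difference of Ikzf3 between odd and even rows was -0.32 and that of Ikzf1 between the Pdcd1 and rest gates turned to -0.011. With the mean of single-cell CPM, Ikzf1 between these gates was -0.12 and between the highest and lowest even row 0.25, Ikzf2 between odd and even rows was 2.97, and Ikzf3 was -0.18 between odd and even rows and 0.99 between the gates. Without the cells of the Cd79a and Cst3 gates, odd over even rows gave -0.17 for Ikzf1 and 2.99 for Ikzf2, and the thinned shares, odd minus even rows, were -0.37 points for Ikzf1 and 38.1 points for Ikzf2, against -8.57 and 22.0 points with them. Leaving out 1 row gave -0.023 to 0.20 for Ikzf1 between the gates, with -0.023 without row 13 and without row 15. With Pdcd1 at 2 UMIs or more, Ikzf1 was higher in the Pdcd1 gate in all 4 odd rows. The causes were not tested. No paired analysis was possible because the labels could not be tied to the hashtag rows, so no row carries a replicate number.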
